A study of Mus musculus with 6 samples.

Results

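The genes described here are 10 members of the oxygen-sensing pathway of the hypoxia-inducible factors (HIFs): the subunit genes Hif1a, Epas1 and Arnt, the prolyl hydroxylase genes Egln1, Egln2 and Egln3, the ubiquitin ligase gene Vhl, and 3 genes known as HIF targets outside glycolysis, Ndrg1, Vegfa and Ankrd37. They were chosen by symbol, and all 10 were found among the 55471 gene identifiers of the deposited count table. RNA sequencing compared primary cortical neurons that received a lentivirus with a short hairpin RNA against Opa1 (shOpa1, 3 libraries) with neurons that received a control hairpin (shControl, 3 libraries). Opa1 encodes a dynamin-like GTPase that fuses mitochondrial inner membranes. The genotype labels are Opa1 knock-down for shOpa1 and WT for shControl. Both groups came from cortices of CD1 mouse embryos (E14.5-15), were exposed to 2 uM of the mitotic inhibitor cytosine arabinoside, were transduced on day 6 of culture and were harvested on day 11. The labels call the libraries biological replicates without saying whether they came from separate litters or cultures, name 1 hairpin condition against Opa1, and do not say which fraction of the cells took up the virus.

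HIF is a pair of proteins, an oxygen-regulated alpha subunit (HIF-1α from Hif1a, HIF-2α from Epas1) and a stable beta subunit (Arnt, or its paralogue Arnt2 in neurons). In the presence of oxygen, iron and 2-oxoglutarate, the Egln enzymes hydroxylate prolines of the alpha subunit, the product of Vhl binds the hydroxylated form, and the protein is degraded. When oxygen falls, the alpha subunit escapes this and binds DNA with its partner at sites built on the letters ACGTG or GCGTG. The control of the alpha subunit is therefore mainly one of protein stability, and messenger RNA levels do not measure it.

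The libraries held 29476268, 32961580 and 31577722 counted read pairs in shOpa1 neurons and 24676709, 28142558 and 28253400 in shControl neurons. Opa1 itself was at 10.2, 8.64 and 8.50 CPM (read-pair counts relative to the scaled library size) in shOpa1 neurons against 201.8, 204.6 and 201.9 CPM in shControl neurons, a log2 fold change of -4.48 ± 0.09 (standard error, SE; quasi-likelihood test of edgeR, with p adjusted after Benjamini and Hochberg, 2.09e-06). Of 16562 genes tested, 6442 (38.9%) passed an adjusted p of 0.05, of which 3130 (18.9% of those tested) were higher and 3312 (20.0%) lower in shOpa1 neurons, with a median log2 fold change of -0.01 over all genes. Replicate 3 lay apart from replicates 1 and 2 on the second principal component, at -36.9 in shOpa1 neurons and -38.3 in shControl neurons, with the other 4 libraries between 17.4 and 20.4. The 9 neuronal markers were all detected, and their summed level was 5094 to 5426 CPM in shOpa1 neurons and 7358 to 7817 CPM in shControl neurons, with 5 lower (Tubb3, Map2, Snap25, Syt1 and Slc17a7) and 1 higher (Gad2). In bulk RNA, fewer cells of a type and less RNA per cell cannot be told apart.

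All 10 genes had enough counts to be tested. Hif1a, Egln1 and Vegfa were higher in shOpa1 neurons, and Arnt, Ndrg1 and Ankrd37 were lower. Epas1, Egln2, Egln3 and Vhl did not pass. The 6 calls of 10 stand beside 38.9% of all genes, and 7 of the 10 had no overlap between the groups, beside 51.8% of all genes. The median log2 fold change of the 10 was 0.05, close to that of all genes. With the replicate number as a block, 3 were higher and 4 lower, the addition being Egln2, where 59.5% of all genes were called (28.8% higher and 30.7% lower).

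**Figure D1:**
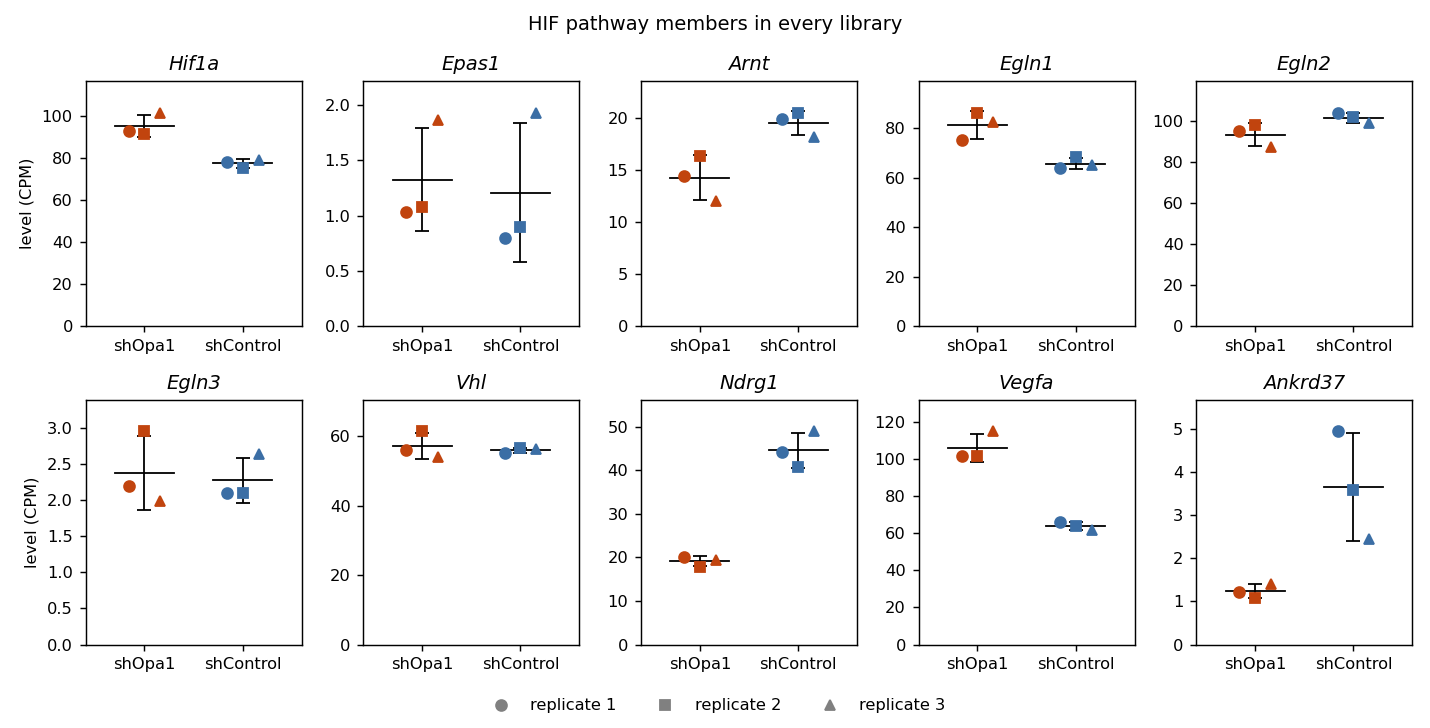
Scaled CPM of each of the 10 genes in the 3 shOpa1 libraries (left in each panel) and the 3 shControl libraries (right), with 1 symbol per library, a line at each group's mean and bars of 1 SD. The groups are separate for Hif1a, Arnt, Egln1, Egln2, Ndrg1, Vegfa and Ankrd37, and overlap for Epas1, Egln3 and Vhl.

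Of the 10 genes, 8 had a start-site window in the RefSeq table of build GRCm38.p6 (250 bases before to 50 after the annotated start), giving 10 windows. Those of the regulator Hif1a, of the hydroxylase gene Egln1 and of 2 targets that moved in opposite directions are printed because HIF binding letters in them can be compared with the direction of the transcript. Capitals mark ACGTG or GCGTG on the strand of the gene, or the same letters on the other strand (CACGT or CACGC).
Ankrd37, chr8:45999801-46000100, minus strand: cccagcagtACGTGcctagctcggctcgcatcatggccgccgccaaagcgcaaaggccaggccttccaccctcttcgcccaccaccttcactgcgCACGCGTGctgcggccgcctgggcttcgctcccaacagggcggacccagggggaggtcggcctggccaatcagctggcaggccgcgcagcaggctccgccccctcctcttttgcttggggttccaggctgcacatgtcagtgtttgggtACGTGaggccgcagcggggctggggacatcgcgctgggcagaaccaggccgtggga
Vegfa, upstream start, chr17:46032328-46032627, minus strand: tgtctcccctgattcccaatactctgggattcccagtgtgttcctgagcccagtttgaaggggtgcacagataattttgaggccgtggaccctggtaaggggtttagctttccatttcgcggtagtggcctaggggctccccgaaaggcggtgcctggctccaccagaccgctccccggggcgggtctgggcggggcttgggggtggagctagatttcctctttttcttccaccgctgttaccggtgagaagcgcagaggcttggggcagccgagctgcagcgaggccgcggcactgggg
Vegfa, downstream start, chr17:46025114-46025413, minus strand: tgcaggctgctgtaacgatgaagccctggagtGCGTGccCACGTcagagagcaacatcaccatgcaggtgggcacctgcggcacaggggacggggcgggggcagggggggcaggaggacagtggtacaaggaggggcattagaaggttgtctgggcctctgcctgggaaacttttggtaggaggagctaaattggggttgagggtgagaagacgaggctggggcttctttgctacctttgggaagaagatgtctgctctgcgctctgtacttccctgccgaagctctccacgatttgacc
Hif1a, chr12:73907617-73907916, plus strand: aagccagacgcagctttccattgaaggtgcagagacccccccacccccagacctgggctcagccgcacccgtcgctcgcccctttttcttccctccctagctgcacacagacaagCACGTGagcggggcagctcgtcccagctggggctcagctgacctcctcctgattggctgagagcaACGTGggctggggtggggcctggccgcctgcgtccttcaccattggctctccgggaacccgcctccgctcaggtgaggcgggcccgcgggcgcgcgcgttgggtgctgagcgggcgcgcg
Egln1, chr8:124949205-124949504, minus strand: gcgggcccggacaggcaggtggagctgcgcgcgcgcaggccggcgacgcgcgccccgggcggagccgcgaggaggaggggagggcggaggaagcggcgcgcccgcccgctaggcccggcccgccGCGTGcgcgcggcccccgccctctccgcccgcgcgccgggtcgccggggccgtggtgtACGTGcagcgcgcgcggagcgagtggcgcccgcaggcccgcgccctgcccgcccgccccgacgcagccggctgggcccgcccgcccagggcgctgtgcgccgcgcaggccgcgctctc

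The Ankrd37 window held 4 matches, at bases -241, -155, -152 and -6 from the start, of which the one at -155 lay on the other strand and shared letters with the one at -152. The Hif1a window held 3, at -135, -134 and -70, the first on the other strand and sharing letters with the second. The Egln1 window held 2, at -126 and -68. The downstream Vegfa window held 2, at -218 and, on the other strand, at -211, and the upstream Vegfa window held none. Among the windows not printed, Egln2 had 6 and 1, Arnt 1, Egln3 1 and Vhl none. In all, 8 of the 10 windows held at least 1 match, beside 60.1% of the 15064 windows of tested genes and 43.8% of all 32851 windows. Of the genes that passed and had a window, those with higher RNA in shOpa1 neurons were Hif1a with 3 matches, Egln1 with 2, and Vegfa with 2 in 1 window and none in the other. Those with lower RNA were Ankrd37 with 4 and Arnt with 1. Ndrg1, which was also lower, and Epas1, which did not pass, had no RefSeq window, so their matches could not be counted. Egln2, with 6 and 1, did not pass. These are matches of letters and not measured binding sites. The windows of Ankrd37 and Hif1a, the downstream window of Vegfa and the Egln2 window with 1 match lie wholly inside the Ensembl gene bounds. Within the windows searched, the only Vegfa matches therefore lie within the gene. Sequence further before the upstream start was not searched, so sites there are not covered.

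The alpha subunit gene Hif1a (chr12:73901375-73947530, plus strand, GRCm38) was at 92.7, 91.6 and 101.4 CPM in shOpa1 neurons and at 78.3, 75.0 and 78.8 CPM in shControl neurons. Every shOpa1 library was above every shControl library. Its means were 95.2 ± 5.38 CPM in shOpa1 neurons and 77.4 ± 2.05 CPM in shControl neurons (SD, n = 3 each), a 1.23-fold difference with a log2 fold change of 0.30 ± 0.06 (SE; 95% interval 0.15 to 0.45; edgeR adjusted p = 0.0093). Exons of the opposite-strand gene Gm15283 and of the same-strand gene Gm49321 cover 8.11% of the Hif1a exons; Gm15283 averaged 0.691 CPM in shOpa1 neurons and 0.568 CPM in shControl neurons, and Gm49321 had no counts.

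Epas1 (chr17:86753700-86833410, plus strand), the other alpha subunit gene and one best known from endothelium, was near the floor of these libraries. It had 32, 37 and 61 read pairs in shOpa1 neurons, or 1.03, 1.08 and 1.86 CPM, and 19, 24 and 52 read pairs in shControl neurons, or 0.796, 0.897 and 1.93 CPM. The groups overlapped, and within each group replicate 3 was the highest library. The log2 fold change was 0.13, with a 95% interval of -0.83 to 1.08 (edgeR adjusted p = 0.83). The summed level of 10 endothelial markers was also highest in replicate 3 of both groups. It was 7.31 CPM there in shOpa1 neurons, against 3.71 to 4.09 CPM in the other shOpa1 libraries. In shControl neurons it was 9.49 CPM, against 6.58 to 6.84 CPM in the other libraries. This was not particular to endothelium. The summed markers of neurons, astrocytes, the oligodendrocyte lineage and dividing cells were likewise highest in replicate 3 of both groups. Those of microglia and of pericytes and fibroblasts were not. The part of any of these cells in Epas1 was not tested.

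Arnt (chr3:95434388-95497240, plus strand), the shared beta subunit, was lower in shOpa1 neurons. It was at 14.4, 16.3 and 12.0 CPM in shOpa1 neurons and at 19.8, 20.4 and 18.2 CPM in shControl neurons, with no overlap. The log2 fold change was -0.45 ± 0.13 (SE; 95% interval -0.75 to -0.16; edgeR adjusted p = 0.0262). The call was lost without shOpa1 replicate 1 (adjusted p = 0.0708), without shControl replicate 1 (0.0763) and without shControl replicate 2 (0.0898), while the replicate block gave an adjusted p of 0.000402.

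Read per length of exon, the beta side of the pair was carried mostly by Arnt2, the paralogue known from neurons and one of the other regulators. Arnt2 was at 242.7, 229.2 and 186.1 CPM in shOpa1 neurons and at 480.8, 488.1 and 420.7 CPM in shControl neurons, a log2 fold change of -1.08 ± 0.11 (SE; edgeR adjusted p = 0.00045). Arnt and Arnt2 together came to 30.3 ± 4.06 CPM per kilobase of exon in shOpa1 neurons and 62.7 ± 4.95 in shControl neurons (SD, n = 3 each), with no overlap (exact two-sided permutation test, p = 0.1, the smallest that 3 against 3 allows). Arnt made up 5.87 ± 0.511% of that sum in shOpa1 neurons and 3.89 ± 0.088% in shControl neurons. Both beta subunit transcripts fell, by 0.45 (Arnt) and 1.08 (Arnt2) on the log2 scale.

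The alpha subunit genes were not lower in sum. Hif1a, Epas1 and Hif3a, which encodes a shorter alpha subunit that can oppose the others, summed to 16.8 ± 0.972 CPM per kilobase in shOpa1 neurons and 14.0 ± 0.437 in shControl neurons (SD, n = 3 each; exact two-sided permutation test, p = 0.1, again the smallest possible). Hif1a was 96.3 ± 0.345% of this sum in shOpa1 neurons and 93.9 ± 0.462% in shControl neurons. Hif3a itself fell to 2.63 ± 0.325 CPM in shOpa1 neurons, against 4.32 ± 0.689 CPM in shControl neurons (log2 fold change -0.71, edgeR adjusted p = 0.0194).

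**Figure D2:**
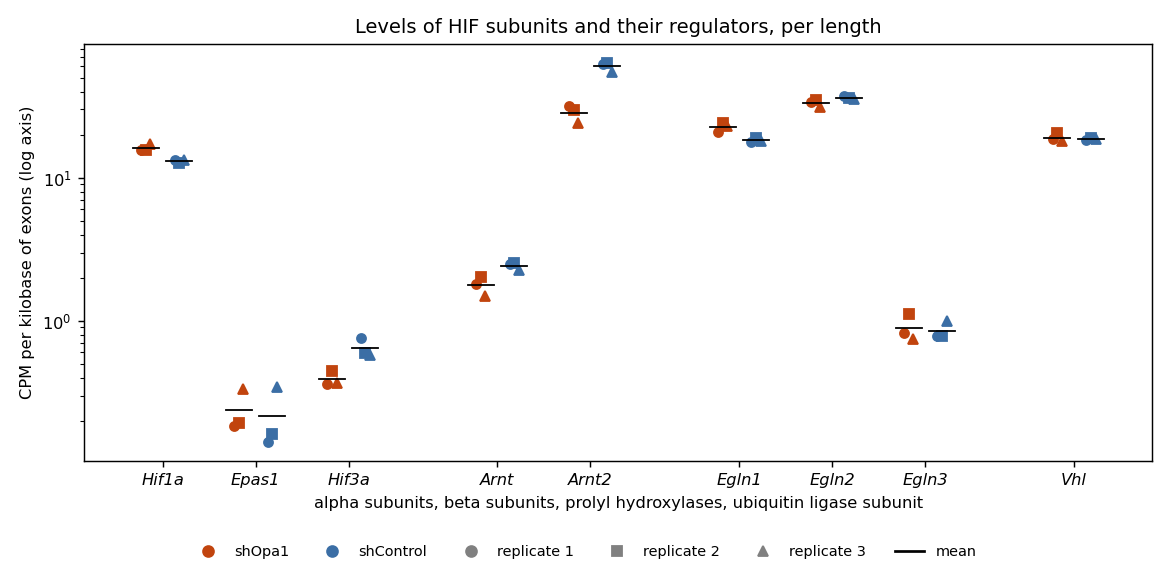
CPM per kilobase of exon, on a log axis, of each alpha subunit, beta subunit and hydroxylase gene and of Vhl, with 1 symbol per library, shOpa1 left of shControl for each gene, and a line at each mean. Arnt2 stands far above Arnt in both groups and is lower in shOpa1 neurons, where the sum of both averages 30.3, against 62.7 in shControl neurons.

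Of the 3 prolyl hydroxylase genes, 1 passed the test. Egln1 (chr8:124908587-124949324, minus strand), which encodes PHD2, the main oxygen sensor for HIF-1α, was at 75.2, 86.3 and 82.4 CPM in shOpa1 neurons and at 63.8, 68.3 and 65.2 CPM in shControl neurons. All shOpa1 libraries lay above all shControl libraries, and the log2 fold change was 0.31 ± 0.07 (SE; 95% interval 0.14 to 0.47; edgeR adjusted p = 0.0132). The call was lost without shOpa1 replicate 2 (adjusted p = 0.0569) and without shControl replicate 1 (0.0556), and the replicate block gave 0.000314.

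Egln2 (chr7:27158658-27166802, minus strand), which encodes PHD1, was at 94.9, 98.1 and 87.1 CPM in shOpa1 neurons and at 103.8, 101.7 and 98.8 CPM in shControl neurons. The groups did not overlap, but the log2 fold change of -0.12 (95% interval -0.27 to 0.03) did not pass (edgeR adjusted p = 0.189). With the replicate block it passed narrowly, at an adjusted p of 0.04996, but it did not pass with replicate 3 as a second batch (0.0592) or in pairs 1 and 2 only (0.221). Egln3 (chr12:54178981-54203860, minus strand), which encodes PHD3 and is itself known as a HIF target, was scarce, with 68, 101 and 65 read pairs in shOpa1 neurons and 50, 56 and 71 in shControl neurons. Its groups overlapped, at 2.38 ± 0.507 CPM in shOpa1 neurons and 2.27 ± 0.311 CPM in shControl neurons (SD, n = 3 each), and the log2 fold change was 0.06 with a 95% interval of -0.45 to 0.58 (edgeR adjusted p = 0.843).

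Per kilobase of exon the 3 hydroxylases summed to 56.8 ± 2.90 CPM in shOpa1 neurons and 55.4 ± 0.873 in shControl neurons (SD, n = 3 each), and the groups overlapped (exact two-sided permutation test, p = 0.7). Within that sum Egln1 took 39.8 ± 2.14% in shOpa1 neurons and 33.1 ± 1.01% in shControl neurons, with no overlap. Egln2 took 58.6 ± 2.10% in shOpa1 neurons and 65.4 ± 1.09% in shControl neurons, also with no overlap. Egln3 took 1.56 ± 0.250% in shOpa1 neurons and 1.54 ± 0.236% in shControl neurons. The exact p for the Egln1 share was 0.1, the smallest this design allows.

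Vhl (chr6:113623959-113631633, plus strand), the substrate-binding part of the ligase that marks hydroxylated alpha subunits for destruction, was at 56.1, 61.3 and 53.9 CPM in shOpa1 neurons and at 55.0, 56.5 and 56.3 CPM in shControl neurons. The groups overlapped, and the log2 fold change of 0.03 had a 95% interval of -0.13 to 0.19 (edgeR adjusted p = 0.759).

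The 3 targets split. Vegfa (chr17:46016993-46032369, minus strand), the angiogenic growth factor, was at 101.4, 101.3 and 114.6 CPM in shOpa1 neurons and at 65.9, 64.0 and 61.8 CPM in shControl neurons. Every shOpa1 library was above every shControl library, by 0.62, 0.66 and 0.88 on the log2(CPM + 0.5) scale in pairs 1, 2 and 3. The log2 fold change was 0.73 ± 0.07 (SE; 95% interval 0.56 to 0.89; edgeR adjusted p = 0.000373). Vegfa and Ndrg1 also belong to the list of 38 integrated stress response genes, of which 37 were tested. Of these, 30 were higher, Vegfa among them, and 4 lower, Ndrg1 among them, or 91.9% beside 38.9% of all genes. The part of that response in the values of Vegfa and Ndrg1 was not tested.

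Ndrg1 (chr15:66929318-66969640, minus strand), a stress-responsive gene of the N-myc downstream-regulated family, went the other way. It was at 20.0, 17.8 and 19.3 CPM in shOpa1 neurons and at 44.1, 40.8 and 48.9 CPM in shControl neurons, well apart. The log2 fold change was -1.23 ± 0.09 (SE; 95% interval -1.44 to -1.01; edgeR adjusted p = 0.000127), the smallest p of the 10 genes. Exons of the opposite-strand genes Gm2895 and Gm17035 cover 8.43% of its exons; Gm2895 averaged 0.338 CPM in shOpa1 neurons and 0.749 CPM in shControl neurons, and Gm17035 had no counts.

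Ankrd37 (chr8:45996902-46005707, minus strand), an ankyrin-repeat gene known as a HIF-1 target, was scarce and lower. It had 38, 37 and 46 read pairs in shOpa1 neurons, or 1.22, 1.08 and 1.41 CPM, and 118, 96 and 66 in shControl neurons, or 4.95, 3.59 and 2.45 CPM. The groups did not overlap, the shControl libraries spread widely, and the pair differences were -1.66, -1.37 and -0.63 on the log2(CPM + 0.5) scale. The log2 fold change was -1.56 ± 0.29 (SE; 95% interval -2.23 to -0.89; edgeR adjusted p = 0.00487). Exons of the opposite-strand genes Lrp2bp and Ufsp2 cover 26.4% of the Ankrd37 exons, and the counting command carried no strand option, so reads there cannot be assigned to 1 gene. Lrp2bp was itself lower, at 0.504 ± 0.280 CPM in shOpa1 neurons and 1.39 ± 0.369 CPM in shControl neurons (log2 fold change -1.45, edgeR adjusted p = 0.0345), and Ufsp2 averaged 41.9 ± 5.96 CPM in shOpa1 neurons and 34.6 ± 2.13 CPM in shControl neurons (adjusted p = 0.0929).

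**Figure D3:**
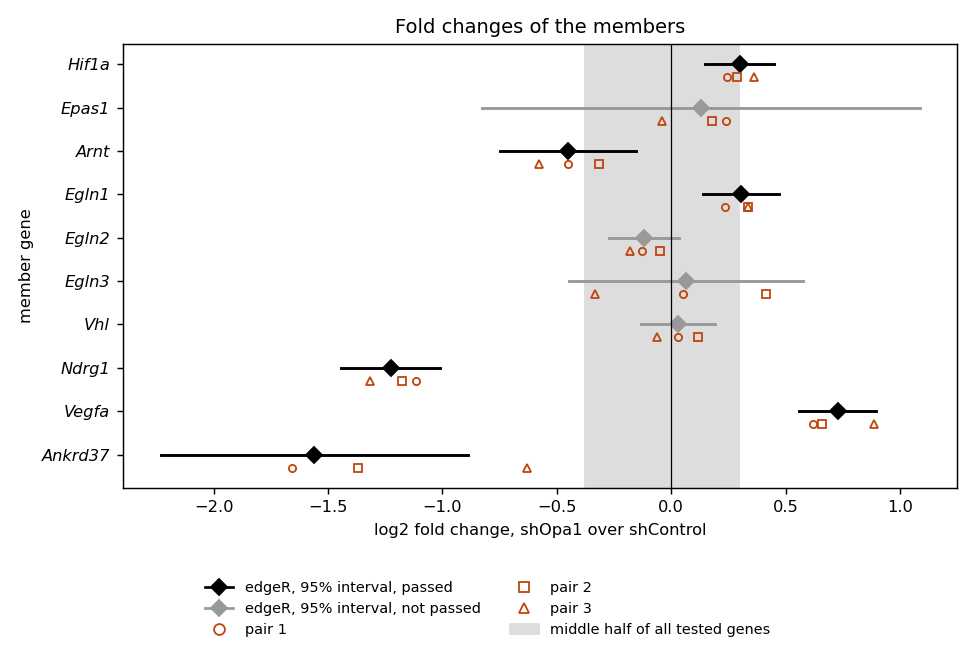
Log2 fold change of shOpa1 over shControl for each of the 10 genes, with its 95% interval from the edgeR fit (black where the adjusted p was under 0.05), the differences of pairs 1, 2 and 3 as open symbols, and a grey band from the lower to the upper quartile of all tested genes. The intervals of Hif1a, Egln1 and Vegfa lie above 0, those of Arnt, Ndrg1 and Ankrd37 below it, and those of Epas1, Egln2, Egln3 and Vhl cross it.

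The order of the levels differed between the groups. In shOpa1 neurons, by mean CPM per kilobase of exon, Egln2 came first at 33.3 (31.1 to 35.0 across its 3 libraries), then Vegfa at 24.7 (23.6 to 26.8), Egln1 at 22.6 (20.9 to 24.0), Vhl at 19.1 (18.0 to 20.5) and Hif1a at 16.2 (15.5 to 17.2). Far below stood Ndrg1 at 2.89 (2.70 to 3.04), Arnt at 1.78 (1.5 to 2.04), Egln3 at 0.893 (0.746 to 1.11), Ankrd37 at 0.804 (0.702 to 0.914) and Epas1 at 0.237 (0.185 to 0.334). Among neighbours in shOpa1 neurons, the ranges of Vegfa and Egln1 and those of Egln3 and Ankrd37 overlapped. In shControl neurons Egln2 again came first at 36.2 (35.3 to 37.1), followed by Vhl at 18.7 (18.4 to 18.8), Egln1 at 18.3 (17.8 to 19.0), Vegfa at 14.9 (14.4 to 15.4) and Hif1a at 13.1 (12.7 to 13.4). Then came Ndrg1 at 6.76 (6.19 to 7.41), Arnt at 2.43 (2.27 to 2.55), Ankrd37 at 2.38 (1.59 to 3.21), Egln3 at 0.854 (0.786 to 0.989) and Epas1 at 0.216 (0.142 to 0.345), and the ranges of Vhl and Egln1 and those of Arnt and Ankrd37 overlapped. Vegfa thus lay wholly above Vhl in shOpa1 neurons and wholly below it in shControl neurons. Ankrd37 overlapped Egln3 in shOpa1 neurons and lay wholly above it in shControl neurons.

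Across the 6 libraries, the genes whose log2 CPM followed Ndrg1 most closely among 12943 genes were Pik3r3 (Pearson r = 0.9998), Dpysl3 (0.9995) and Ralgps2 (0.9993), and 212 genes had an r above 0.99, all over the same 2 groups of libraries.

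The wider pathway moved in both directions. Of 28 other tested regulators of HIF (co-factors, ligase parts, chaperones and inhibitors), 4 were higher (Rbx1, Rack1, Commd1 and Ago2) and 5 lower (Hif3a, Arnt2, Usp20, Os9 and Ubxn7), or 32.1% beside 38.9% of all genes. With the replicate block 9 were higher and 9 lower, in a fit that called 59.5% of all genes. The median log2 fold change was 0.02, against -0.01 over all genes. Ubxn7, an adaptor between the VHL ligase complex and the p97 segregase, fell to 25.6 ± 0.693 CPM in shOpa1 neurons, against 59.3 ± 3.14 CPM in shControl neurons (log2 fold change -1.21, edgeR adjusted p = 5.23e-05). Commd1, an inhibitor of HIF-1 dimerization, was at 17.5 ± 0.497 CPM in shOpa1 neurons and 12.2 ± 0.835 CPM in shControl neurons (log2 fold change 0.52, edgeR adjusted p = 0.00386). Ago2, the slicer of the microRNA pathway, was at 359 ± 25.8 CPM in shOpa1 neurons and 274 ± 8.5 CPM in shControl neurons (0.39, adjusted p = 0.00414 by edgeR).

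Of 50 other known HIF targets outside glycolysis, 44 were tested, and 13 were higher and 12 lower, or 56.8% beside 38.9% of all genes, with a median log2 fold change of 0.15. With the replicate block 21 were higher and 15 lower, beside 28.8% and 30.7% of all genes. Car9, Lox, Epo, Edn1, Nos2 and Apln were under the filter on low counts, and Epo had no counts in any library. The gene with the smallest p was Hmox1, which encodes haem oxygenase and also answers to oxidative stress, at 49.0 ± 3.23 CPM in shOpa1 neurons and 9.10 ± 0.795 CPM in shControl neurons (log2 fold change 2.43, edgeR adjusted p = 2.36e-05). Insig2, a sterol-sensing membrane protein gene, was at 59.9 ± 2.71 CPM in shOpa1 neurons and 36.9 ± 3.10 CPM in shControl neurons (0.70, edgeR adjusted p = 0.000743). Ddit4, an inhibitor of mTOR complex signalling, fell to 33.4 ± 0.998 CPM in shOpa1 neurons, against 66.2 ± 2.08 CPM in shControl neurons (-0.99, edgeR adjusted p = 7.21e-05). Ccng2, an unconventional cyclin gene, fell to 13.4 ± 1.52 CPM in shOpa1 neurons, against 34.0 ± 2.29 CPM in shControl neurons (-1.35, edgeR adjusted p = 0.000154). Klhl24, a kelch-like protein gene, was at 46.7 ± 5.91 CPM in shOpa1 neurons and 89.6 ± 1.66 CPM in shControl neurons (-0.94, edgeR adjusted p = 0.00042). Ero1l, an oxidase of the endoplasmic reticulum, was at 14.4 ± 1.23 CPM in shOpa1 neurons and 24.6 ± 2.24 CPM in shControl neurons (-0.78, edgeR adjusted p = 0.00137). Without the 3 genes that the stress response list also holds (Ddit4, Ero1l and Stc2), 12 were higher and 10 lower of 41, beside 18.9% and 20.0% of all genes.

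A few further genes of this list were named after their values were seen, and their relation to Vegfa was not tested. Adm, which encodes the vasodilator adrenomedullin, had 28, 33 and 14 read pairs in shOpa1 neurons and 3, 7 and 2 in shControl neurons (log2 fold change 2.28 ± 0.52, SE; edgeR adjusted p = 0.0122). Kdr, the main signalling receptor for Vegfa, was at 1.03, 1.28 and 2.29 CPM in shOpa1 neurons and at 3.52, 3.29 and 5.08 CPM in shControl neurons, with no overlap (-1.36 ± 0.33, SE; edgeR adjusted p = 0.0152). Flt1, its decoy receptor, was at 0.451, 0.526 and 2.84 CPM in shOpa1 neurons and 0.671, 0.561 and 1.97 CPM in shControl neurons, overlapping (edgeR adjusted p = 0.842). Kdr is one of the 10 endothelial markers, 6 of which were under 1 CPM in all libraries.

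Of 22 HIF targets of glucose uptake and glycolysis, 6 were higher (Slc2a1, Hk2, Gapdh, Pkm, Slc16a1 and Slc16a3) and 2 lower (Pfkfb3 and Pfkfb4), or 36.4% beside 38.9% of all genes, with a median log2 fold change of -0.04. With the replicate block 7 were higher and 9 lower, in the fit that called 59.5% of all genes. With upper-quartile scaling 7 were higher and 1 lower. That scaling also moved all genes, to 3634 higher and 2990 lower, from 3130 and 3312 in the main fit. Slc2a1, the glucose transporter GLUT1, was at 21.6 ± 0.878 CPM in shOpa1 neurons and 7.06 ± 0.365 CPM in shControl neurons (log2 fold change 1.62, edgeR adjusted p = 5.36e-05). The lactate transporter gene Slc16a3 was at 7.60 ± 1.62 CPM in shOpa1 neurons and 2.16 ± 0.736 CPM in shControl neurons (1.82, edgeR adjusted p = 0.00259). The kinase gene Pfkfb3, which sets a glycolytic activator, fell to 24.7 ± 2.44 CPM in shOpa1 neurons, against 37.0 ± 3.28 CPM in shControl neurons (-0.58, edgeR adjusted p = 0.00409).

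**Figure D4:**
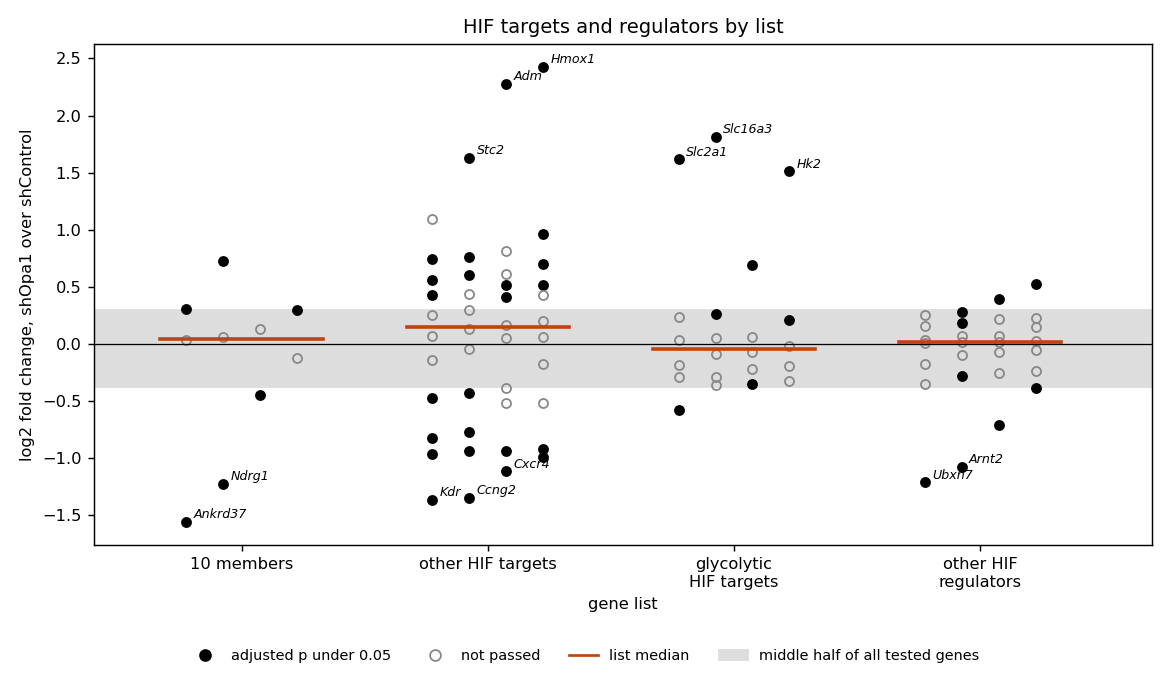
Log2 fold change of shOpa1 over shControl for the 10 genes and the 3 other HIF lists, with 1 point per gene (filled where the adjusted p was under 0.05), a line at each median and a grey band from the lower to the upper quartile of all tested genes. Points lie on both sides of 0 in every list, and the medians are 0.05 for the 10 genes, 0.15 for other targets, -0.04 for glycolytic targets and 0.02 for other regulators.

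A 7-letter sequence, GAAACTA, was searched in the longest 3' UTR of each gene because earlier results on these libraries had picked it from the same fold changes, so its link to direction is not independent evidence. It was present in 1334 of 13850 genes (9.63%), whose median log2 fold change was -0.42, against 0.02 for the others. None of the 10 genes carried it, including Ndrg1, Ankrd37 and Arnt, which were lower. Arnt2 carried 1 copy at chr7:84246764-84246770 (minus strand, GRCm38), base 3286 of a 3778-base 3' UTR, shown with the 7 letters in capitals.
Arnt2: ggcaacataatGAAACTAatcttaaagac
Of 28 regulators 4 carried it (14.3%: Arnt2, Sirt1, Ubxn7 and Usp20, 3 of them lower). Of 44 targets outside glycolysis 6 carried it (13.6%), 5 of them lower. Of 22 glycolytic genes 1 carried it (4.55%), Pfkp, which did not pass. These shares stand beside 9.63% of all genes searched. The share of all carriers called lower was not computed. Since the letters were picked from these fold changes, the counts of lower carriers are not a result about these lists.

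Of the summed markers of other cell types, those of astrocytes and microglia did not overlap between the groups. The 10 astrocyte markers (9 tested, 3 lower and 1 higher) summed to 116 to 157 CPM in shOpa1 neurons and 241 to 392 CPM in shControl neurons. The 10 microglial markers summed to 12.6 to 13.8 CPM in shOpa1 neurons and 17.8 to 20.3 CPM in shControl neurons, with 8 of the 10 under 1 CPM in all libraries. The 9 oligodendrocyte lineage markers summed to 38.5 to 55.3 CPM in shOpa1 neurons and 47.2 to 75.8 CPM in shControl neurons, and the 10 pericyte and fibroblast markers to 8.56 to 56.4 CPM in shOpa1 neurons and 12.1 to 23.6 CPM in shControl neurons, highest in shOpa1 replicate 1. The 10 markers of dividing cells summed to 6.37 to 7.98 CPM in shOpa1 neurons and 6.17 to 18.7 CPM in shControl neurons. The sums of the oligodendrocyte lineage, pericyte and fibroblast, and dividing-cell markers overlapped between the groups. No listed marker was at 0 in every library. The part of these cells in the values of the 10 genes was not tested.

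In the authors' deposited table, 7935 genes had an adjusted p under 0.05, 3915 higher and 4020 lower in shOpa1 neurons. That authors' deposited table gives Vegfa 0.74, Ndrg1 -1.21, Ankrd37 -1.52, Hif1a 0.31, Egln1 0.31 and Arnt -0.45 as log2 fold changes, all 6 with an adjusted p under 0.05. Egln2 had -0.11 (adjusted p = 0.164) and Epas1 0.19 (0.758) in the authors' deposited table.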

How the data were processed

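Polyadenylated RNA of 3 shOpa1 and 3 shControl cultures was made into stranded libraries, per the labels' protocols. The authors' deposited count table holds whole read-pair counts per gene, which featureCounts (1.6.0, pairs counted once, no strand option given) assigned to gene models of Ensembl release 99 on GRCm38, per the file headers. HISAT2, DESeq2 and mm10 are named without versions in the submitters' processing notes. The authors' deposited comparison gives size-factor normalised signal, log2 fold changes with standard errors, their ratio as a score, and p-values, per the file headers.

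From the counts, edgeR 4.0.16 (R 4.3.3; trimmed mean of M-values scaling, its filter on low counts, robust quasi-likelihood test on group) was fitted to all 6 libraries, with Benjamini-Hochberg adjustment over 16562 genes and a threshold of 0.05. The method was tested on simulated counts, drawn without pairing between libraries and with far fewer genes changed than were called here. That test therefore does not cover paired libraries. CPM uses the scaled library sizes, and pair differences use log2(CPM + 0.5). DESeq2 1.42.0 and voom in limma 3.58.1 were alternatives. Same-numbered libraries deviated together (r = 0.519, 0.537 and 0.666 for pairs 1, 2 and 3), which is taken as pairing, found from the data. Libraries of 1 group differed by 6.11 to 30.8 chi-square per degree of freedom, so none was the same library sequenced again. This measure cannot tell separate cultures from separate preparations of 1 culture. The labels do not name separate litters or cultures, so the spread behind each p-value is that between 6 libraries and may be technical in part.

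Besides Opa1 and the 10 genes, up to 6 genes per pathway list were named by smallest p, among those passing with a mean of at least 10 counts, and the 3 genes closest to the member with the smallest p, among those with a mean of at least 50 counts. Genes named to list calls, exon neighbours, Adm, Flt1, Bnip3, Bnip3l, P4ha2, Kdm4b and Tet1 were chosen after their values were seen. Members and lists were chosen with earlier results of these data known. Promoter windows are from RefSeq (GRCm38.p6), and 3' UTRs from GENCODE models on GRCm38. Aldoa has 2 identifiers in the table and the older was used. DNA binding and protein levels are not analysed here.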

Additional observations from a re-analysis of the deposited data

How the results depend on the processing

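The alternatives were RLE and upper-quartile scaling, no filter on low counts, DESeq2, limma-voom, the replicate block, replicate 3 as a second batch, pairs 1 and 2 only, and leaving out each library. With the replicate block 9851 of all genes passed, against 6442 without it, and called regulators numbered 18 and glycolytic genes 16. Replicate 3 as a second batch gave 18 and 16, in a fit that called 9353 of 16562 genes. Pairs 1 and 2 only gave 16 and 13, in a fit that called 8496 of 16702 genes. Egln2 passed with the replicate block (log2 fold change -0.12, adjusted p = 0.04996), but not with replicate 3 as a second batch (0.0592) or in pairs 1 and 2 only (0.221), and the block changed no other call among the 10 genes. Leaving out 1 library at a time gave 4589 to 6626 calls over all genes, 4 to 6 of the 10 genes (4 without shControl replicate 1), 5 to 11 regulators (5 without shControl replicate 1), 20 to 26 targets outside glycolysis and 5 to 11 glycolytic genes (5 without shOpa1 replicate 1, shOpa1 replicate 2 or shControl replicate 2). The log2 fold change then ran from -0.20 to 0.64 for Epas1, from -0.12 to 0.18 for Egln3 and from -0.021 to 0.069 for Vhl, changing sign in each, and none of these was called. Hif1a, Ndrg1, Vegfa and Ankrd37 kept their direction and call under all 14 alternatives, at 0.25 to 0.33, -1.29 to -1.16, 0.66 to 0.76 and -1.78 to -1.29 when a library was left out. Of the other genes named by rule, Usp20 lost its call without shControl replicate 1 (adjusted p = 0.0565) or shControl replicate 2 (0.0539), and Gapdh without 4 of the 6 libraries (highest adjusted p = 0.0968). Of 392 gene and setting pairs, 375 kept direction and side of the threshold. Why these values moved was not tested. Epas1, Egln3 and Ankrd37 rest on 19 to 118 read pairs per library.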

Other observations

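The Egln enzymes belong to a larger family that needs oxygen, iron and 2-oxoglutarate. Of the 14 genes of that family among the members and lists (grouped after their values were seen), 5 were higher in shOpa1 neurons, 2 lower, and 7 did not pass, 50.0% beside 38.9% of all genes tested. Higher beside Egln1 were the collagen-modifying enzymes P4ha1, P4ha2 and Plod2 and the histone demethylase Kdm4c. P4ha2 was at 22.7, 21.8 and 20.2 CPM in shOpa1 neurons and at 15.9, 16.4 and 12.9 CPM in shControl neurons (log2 fold change 0.52, edgeR adjusted p = 0.00987). Lower were the histone demethylase Kdm4b, at 90.6, 93.0 and 105 CPM in shOpa1 neurons against 136, 130 and 135 CPM in shControl neurons (-0.47, edgeR adjusted p = 0.0021), and the DNA demethylase Tet1, at 31.6, 32.2 and 32.2 CPM in shOpa1 neurons against 44.5, 43.2 and 41.8 CPM in shControl neurons (-0.43, edgeR adjusted p = 0.00163). Of the mitophagy receptors of the target list, 1 was higher and 1 lower. Bnip3 was at 35.1, 36.7 and 38.2 CPM in shOpa1 neurons and 22.7, 18.0 and 24.9 CPM in shControl neurons (0.75, edgeR adjusted p = 0.00295), and Bnip3l at 60.6, 61.7 and 44.1 CPM in shOpa1 neurons and 108, 98.7 and 88.0 CPM in shControl neurons (-0.82, edgeR adjusted p = 0.00393).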
